A study of Mus musculus with 2 samples.

Results

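The imprinted neighbourhood on mouse chromosome 11 around Grb10, with its neighbours Ddc and Cobl, was examined in the heart. The 3 genes were taken by name, and all 3 were found among the 24015 genes listed for the adult and the 22691 listed for the aged heart. Nuclei of 1 adult heart (9 weeks) and 1 aged heart (78 weeks) of female F1 mice with a BL6 (C57BL/6J) mother and a CAST (CAST/EiJ) father were measured by single-nucleus RNA-seq with a 10x Genomics 3ʹ kit, after sorting of nuclei stained with the DNA dye DRAQ7. The values pool nuclei of all cell types that had an active BL6 X chromosome. The labels name the breed as a cross of C57BL/6J∆Xist-/+ with CAST/EiJ, while their genotype field names C57BL/6JxCAST/EiJ, and the study describes both hearts as wild type. For each gene, SNP-overlapping reads of the BL6 and of the CAST allele were counted, and the allelic ratio is the BL6 share, so that a ratio of 1 is maternal and a ratio of 0 is paternal. With 1 heart per age there was no test between ages, and all intervals are 95% intervals that cover counting error only. As BL6 was always the mother, an effect of the strain and an effect of the parent cannot be told apart in these hearts.

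Imprinted genes are transcribed mainly from 1 parental allele, because DNA methylation set in the germ line differs between the parental chromosomes. Grb10 encodes an adaptor protein that binds the insulin and IGF1 receptors and inhibits their signalling. It is known to be expressed from the maternal allele in most mouse tissues and from the paternal allele in neurons. Ddc encodes aromatic L-amino acid decarboxylase, which makes dopamine and serotonin, and a Ddc transcript from an alternative first exon is known to be paternally expressed in the developing heart. Cobl encodes cordon-bleu, an actin nucleator, and maternal expression of Cobl has been described in the yolk sac.

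All 3 genes lie on the minus strand of GRCm38 and encode proteins. Ddc spans chr11:11814101-11898144, Grb10 spans chr11:11930499-12037422 and Cobl spans chr11:12236676-12464960. The gap between Ddc and Grb10 is 32.4 kb, and the gap between Grb10 and Cobl is 199 kb. Other loci lie inside the 3 genes. The long noncoding RNA 1700042O10Rik (chr11:11868123-11885321, plus strand) lies antisense inside Ddc, LOC102631979 (chr11:11958406-11967116) inside an intron of Grb10, and Gm39581, Gm12002 and Gm30596 inside Cobl. Of 3104 pairs of a locus and another locus inside it at 9 weeks and 2870 at 78 weeks, 0 had more reads of either allele in the inner locus, so reads of an inner locus were counted for the outer gene as well. Whether strand was used in counting is not given in the sources used here, so reads of the 2 genes of such a pair cannot be told apart.

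The sequences in front of the 3 genes and of 1700042O10Rik are shown because the allelic ratios of these loci lie far apart. They come from RefSeq (GRCm38.p6), end 1 base before the outermost RefSeq start of the gene, and are written 5′ to 3′ on the strand of the gene with each CG dinucleotide, the site of DNA methylation, in capitals. The windows are chr11:12037429-12037670 for Grb10, chr11:11898145-11898394 for Ddc, chr11:12465023-12465210 for Cobl and chr11:11867873-11868122 for 1700042O10Rik.
Grb10: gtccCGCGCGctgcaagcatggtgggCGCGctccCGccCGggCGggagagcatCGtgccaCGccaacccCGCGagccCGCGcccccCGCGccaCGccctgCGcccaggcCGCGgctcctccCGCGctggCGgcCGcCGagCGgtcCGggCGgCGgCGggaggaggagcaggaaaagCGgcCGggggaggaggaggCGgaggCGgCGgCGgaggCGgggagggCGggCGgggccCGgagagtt
Ddc: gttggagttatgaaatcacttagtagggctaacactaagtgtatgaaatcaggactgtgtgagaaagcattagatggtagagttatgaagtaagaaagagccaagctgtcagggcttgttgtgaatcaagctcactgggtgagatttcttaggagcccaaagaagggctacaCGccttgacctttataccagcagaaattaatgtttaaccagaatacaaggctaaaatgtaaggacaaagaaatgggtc
Cobl: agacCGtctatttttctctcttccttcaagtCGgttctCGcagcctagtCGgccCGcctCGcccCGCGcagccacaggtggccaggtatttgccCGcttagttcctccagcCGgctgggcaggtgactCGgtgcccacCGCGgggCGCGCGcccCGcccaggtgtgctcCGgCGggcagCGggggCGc
1700042O10Rik: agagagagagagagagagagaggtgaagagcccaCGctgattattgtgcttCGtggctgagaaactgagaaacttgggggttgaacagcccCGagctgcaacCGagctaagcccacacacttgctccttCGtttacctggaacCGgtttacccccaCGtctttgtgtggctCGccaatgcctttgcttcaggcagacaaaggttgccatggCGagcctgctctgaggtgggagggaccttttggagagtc
Over the 250 bases before the listed start, bases past the outermost start included, Grb10 had 40 CG, Cobl 36, 1700042O10Rik 9 and Ddc 1. At least 40 CG were found in 1.31% of 32851 such windows of RefSeq genes, at least 36 in 2.58%, at least 9 in 40.3% and at least 1 in 92.1%, and the median was 6. A second start listed for each of the 3 genes had 8 CG for Grb10 (chr11:12027972-12028221), 4 for Ddc (chr11:11890409-11890658) and 0 for Cobl (chr11:12412141-12412390). Methylation was not measured in the values analysed here, and a link between CG content and allelic ratio was not tested.

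Grb10 was the gene with the strongest maternal bias of the 3 in both hearts. In the adult heart, 2111 of its reads came from BL6 and 5 from CAST, an allelic ratio of 0.998. In the aged heart it had 1297 BL6 and 6 CAST reads, an allelic ratio of 0.995. The CAST share was thus 0.236% (exact interval 0.0768% to 0.551%) at 9 weeks and 0.460% (0.169% to 1.00%) at 78 weeks. The difference in allelic ratio (adult minus aged) was 0.00224, with a Newcombe interval of -0.00178 to 0.00781 that includes 0. The intronic LOC102631979 held 15.5% of the adult and 15.6% of the aged Grb10 reads, on 8.15% of the length of the gene. Its allelic ratio was 1 in the adult heart, with 0 of 328 reads from CAST. A limit of 3 counts for a count of 0 allows a CAST share of up to 0.915%, and the exact interval reaches 1.12%. In the aged heart its allelic ratio was 0.985 (0.957 to 0.997), with 3 of 203 reads from CAST. Without these reads, the allelic ratio of Grb10 was 0.997 in both hearts, and 3 of its 6 aged CAST reads were among those left out.

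Few autosomal genes had such an allelic ratio. Of the autosomal genes with at least 20 reads, the minimum the study used, 1.99% at 9 weeks and 1.59% at 78 weeks had an allelic ratio of 0.9 or higher. At the paternal end, 0.663% and 0.626% had a ratio of 0.1 or lower. In the adult library, 77 of 14037 autosomal genes had an allelic ratio at or above that of Grb10, and in the aged library 66 of 12770. The autosomal reads together had a BL6 share of 53.4% and 53.8%. Among 7068 autosomal genes with at least 100 reads in both libraries, those with allelic ratios nearest to those of Grb10 over the 2 hearts included Meg3, Rian, Ogdhl and Gm39020. Meg3 and Rian are maternally expressed noncoding RNAs of the imprinted cluster on chromosome 12. Meg3 had 275 of 275 BL6 reads at 9 weeks and 423 of 425 at 78 weeks, and Rian had 139 of 139 and 181 of 182. Ogdhl, which encodes a protein like oxoglutarate dehydrogenase, had 2 CAST reads of 413 and 1 of 281.

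Ddc had the opposite bias to Grb10 in the adult heart, and too few reads for a call in the aged heart. In the adult heart, 11 of its reads came from BL6 and 68 from CAST, an allelic ratio of 0.139 (0.0716 to 0.235). In the aged heart it had 4 BL6 and 8 CAST reads, an allelic ratio of 0.333 (0.0992 to 0.651), under the minimum of 20 reads. An allelic ratio at or below the adult value of Ddc was found for 133 of 14037 autosomal genes in the adult library (0.947%). The allelic ratio of Grb10 was higher than that of Ddc by 0.858 (0.765 to 0.918) in the adult heart, across a gap of 32.4 kb. In the aged heart the difference was 0.662 (0.386 to 0.857). Between the ages, the allelic ratio of Ddc differed by -0.194 (adult minus aged), with an interval of -0.477 to 0.0222 that includes 0.

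The CAST reads of Ddc lay mostly inside the 1700042O10Rik locus. This locus covers 17.2 kb, or 20.5% of Ddc, from 12.8 kb after the outermost start of Ddc. In the adult heart it had 1 BL6 and 53 CAST reads, an allelic ratio of 0.0185 (0.000469 to 0.0989), and held 77.9% of the CAST and 9.09% of the BL6 reads of Ddc. In the aged heart it had 0 BL6 and 7 CAST reads. The limit of 3 counts allows a BL6 share of up to 42.9%, and the exact interval of its allelic ratio reaches 0.410. In the rest of Ddc, 10 of 25 adult reads came from BL6, an allelic ratio of 0.400 (0.211 to 0.613), and 4 of 5 aged reads. The allelic ratio of the rest of Ddc was higher than that of the inner locus by 0.381 (0.198 to 0.575) in the adult heart. Reads were also denser in the inner locus, with 8.40 times as many per kb as in the rest of Ddc at 9 weeks. At 78 weeks there were 5.44 times as many, from only 7 and 5 reads. The number of SNPs per kb is not part of these values, so the densities carry any difference in it as well. Exons of Ddc cover 1199 of the 17199 bases of the inner locus in GENCODE M21, and 1 of 10 annotated Ddc transcripts starts there. Most CAST reads of the gene can thus belong to a Ddc transcript or to 1700042O10Rik.

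Cobl was read from both alleles. In the adult heart, 204 of its reads came from BL6 and 203 from CAST, an allelic ratio of 0.501 (0.452 to 0.551). In the aged heart it had 83 BL6 and 53 CAST reads, an allelic ratio of 0.610 (0.523 to 0.693). The allelic ratio of Grb10 was higher than that of Cobl by 0.496 (0.448 to 0.545) at 9 weeks and by 0.385 (0.307 to 0.469) at 78 weeks. The allelic ratio of Cobl was lower in the adult than in the aged heart by an interval that does not include 0, with a difference of -0.109 (-0.201 to -0.0122). Such an interval, with the higher allelic ratio in the aged heart, was found for 13.7% of 12390 autosomal genes, and one with the lower allelic ratio in the aged heart for 12.8%, so a shift of this kind was common. The 3 loci inside Cobl held 112 adult and 58 aged reads, and without them the allelic ratio of Cobl was 0.458 (0.400 to 0.516) and 0.577 (0.460 to 0.688), with a difference of -0.119 (-0.237 to 0.00524). Of the inner loci, Gm12002, which lies on the plus strand, had an allelic ratio of 0.640 (0.532 to 0.739) from 89 adult reads and 0.635 (0.490 to 0.764) from 52 aged reads.

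**Figure D1:**
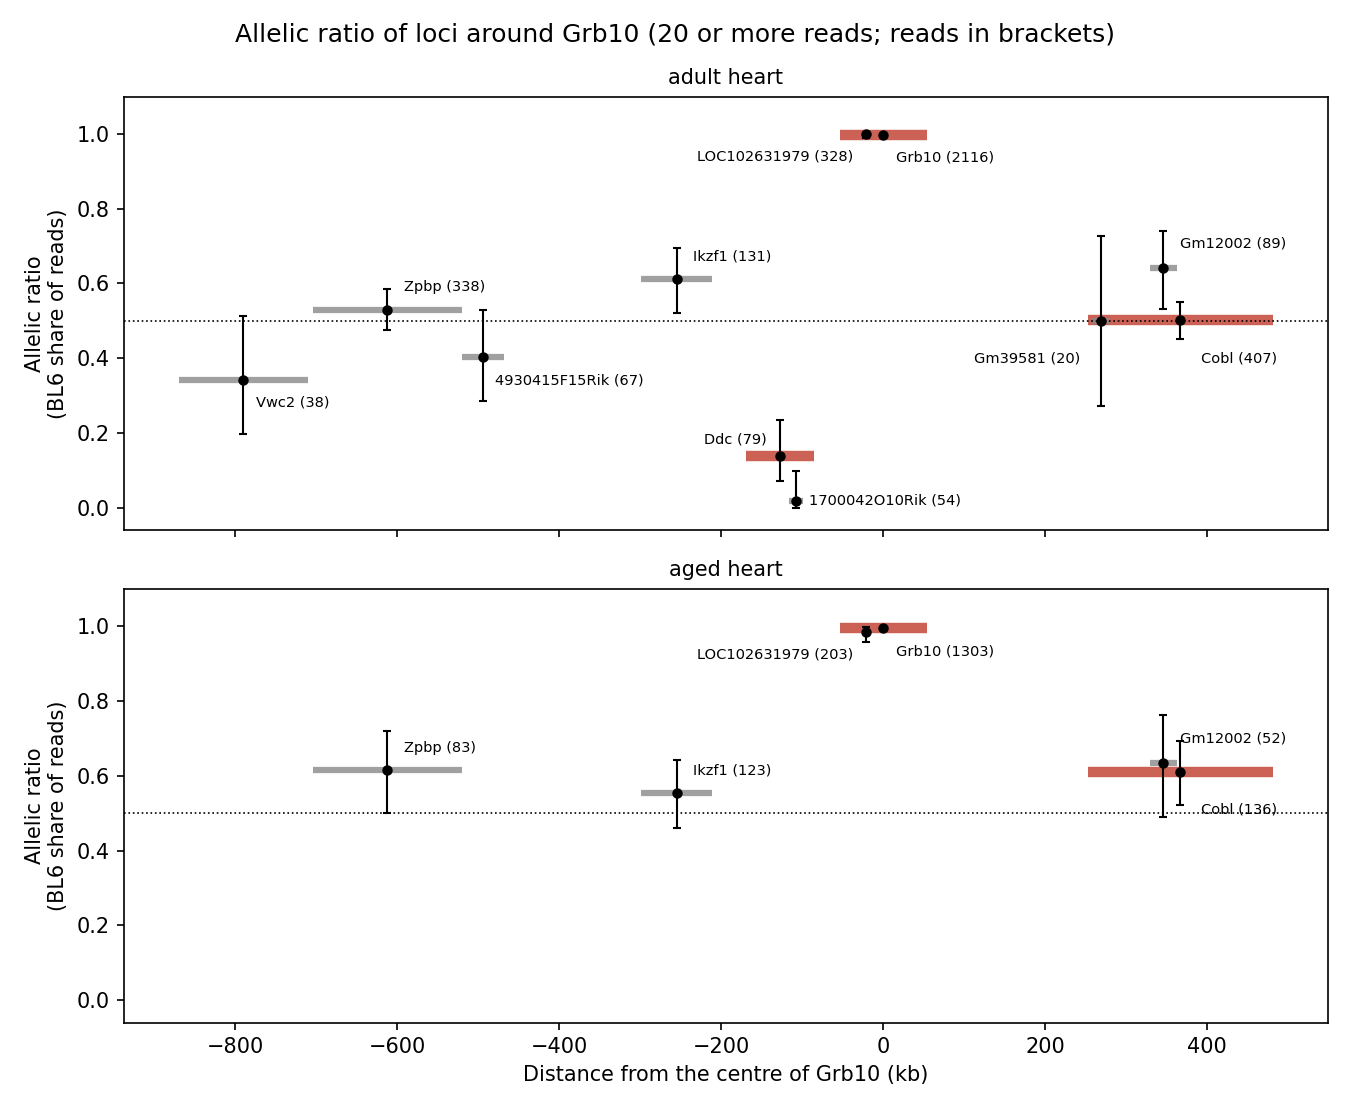
Allelic ratio (y axis, BL6 share of SNP-overlapping reads) of the loci with at least 20 reads against their distance from the centre of Grb10 in kb (x axis), in the adult (top) and the aged heart (bottom). Horizontal bars span each locus (red for Grb10, Ddc and Cobl), points are at its middle, error bars are exact 95% intervals, and brackets give reads. Grb10 and LOC102631979 sit at the top, and Ddc (0.139) and 1700042O10Rik (0.0185) at the bottom of the adult panel. Cobl lies near the dotted line at 0.5 in the adult panel and above it, at 0.610, in the aged panel.

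Outside Grb10, no locus of the neighbourhood with at least 20 reads had such a maternal bias. In the window that reaches 1 Mb to either side of Grb10, 18 loci were listed at 9 weeks and 17 at 78 weeks, and 11 and 6 had at least 20 reads. Grb10 and LOC102631979 were the 2 loci with an allelic ratio of 0.9 or higher in each library. The other loci with at least 20 reads, apart from 1700042O10Rik, ranged from 0.139 to 0.640 at 9 weeks and from 0.553 to 0.635 at 78 weeks. Ikzf1, a transcription factor gene of lymphoid cells that ends 158 kb from the Grb10 locus, is the nearest gene beyond Ddc with enough reads. It had an allelic ratio of 0.611 (0.522 to 0.695) at 9 weeks and 0.553 (0.461 to 0.643) at 78 weeks. For Zpbp, which encodes an acrosome protein of sperm, the allelic ratio was 0.530 (0.475 to 0.584) and 0.614 (0.501 to 0.719). For Vwc2, 13 of 38 adult reads and 4 of 10 aged reads came from BL6. Fignl1, between Ikzf1 and Ddc, had 6 reads in each heart, of which 5 and 6 were from CAST. Gm11998 had 2 BL6 reads at 9 weeks and 9 at 78 weeks, and 4930512M02Rik 1 and 7, with 0 CAST reads for both. On the Cobl side of Grb10, Gm30423 had a single BL6 read in the adult heart. RefSeq lists 29 genes in the window, of which 13 had no row in either library, 1 of them protein-coding.

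The levels of Ddc and Cobl were lower in the aged heart by more than counting error, while the result for Grb10 depended on the scale. Scaled to 1000000 SNP-overlapping reads of a library (RPM), the level of Grb10 was 217 RPM (exact interval 208 to 227) at 9 weeks and 224 RPM (212 to 237) at 78 weeks. The ratio aged over adult was 1.03 (0.964 to 1.11), which includes 1. It was 0.917 (0.856 to 0.984) when scaled to the reads of chromosome 11 and 0.893 (0.833 to 0.958) when scaled to the median autosomal gene, and neither interval includes 1. Cobl stood at 41.8 RPM (37.8 to 46.0) and 23.4 RPM (19.7 to 27.7), a ratio of 0.561 (0.459 to 0.683). Ddc had 8.10 RPM (6.42 to 10.1) and 2.07 RPM (1.07 to 3.61), a ratio of 0.255 (0.126 to 0.471). The median ratio of 12390 autosomal genes with at least 20 reads in both libraries was 1.17 (interquartile range 0.868 to 1.57), and 6.94% of them had a lower ratio than Cobl. Of these genes, 11.7% were lower in the aged heart by 1.5-fold or more, as was Cobl, and 28.3% were higher by as much, as was none of the 3 members. Fewer cells that use a gene and less RNA per cell cannot be told apart in these pooled nuclei.

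Split by allele, the lower level of Ddc in the aged heart passed counting error on the CAST allele but not on the BL6 allele, which had fewer reads. A difference between the alleles was not shown, as the change in allelic ratio of -0.194 (-0.477 to 0.0222, adult minus aged) includes 0. CAST reads of Ddc stood at 6.98 RPM (5.42 to 8.84) and 1.38 RPM (0.595 to 2.72), a ratio of 0.198 (0.0820 to 0.412). Its BL6 reads gave 1.13 RPM (0.563 to 2.02) and 0.689 RPM (0.188 to 1.76), a ratio of 0.611 (0.142 to 2.06) from 11 and 4 reads. The intervals of both ratios overlap. The 1700042O10Rik locus followed Ddc, whose reads it shares, with 5.54 RPM (4.16 to 7.23) and 1.21 RPM (0.485 to 2.48). For Cobl, CAST reads had a ratio of 0.438 (0.318 to 0.596) and BL6 reads of 0.683 (0.523 to 0.886), so both alleles were lower in the aged heart. For Grb10, CAST reads stood at 0.513 RPM (0.167 to 1.20) and 1.03 RPM (0.379 to 2.25), with overlapping intervals.

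**Figure D2:**
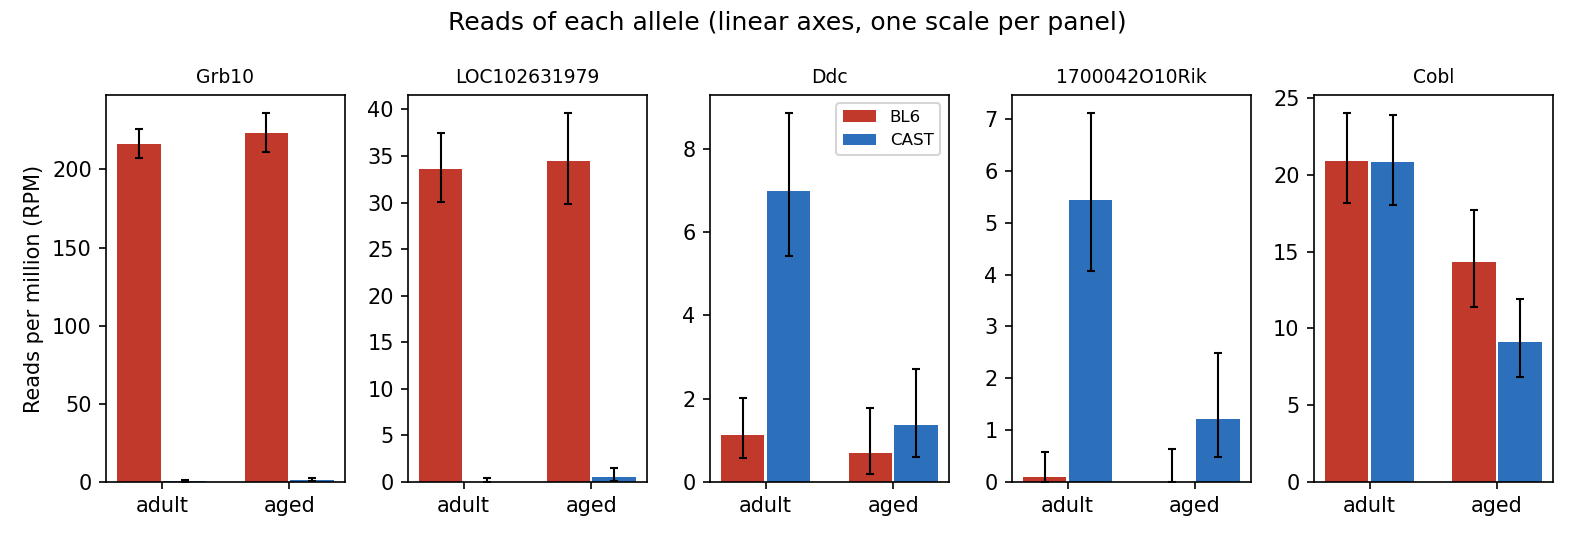
RPM (y axis, linear from 0, a scale of its own in each panel) of the BL6 (red) and the CAST allele (blue) in the adult and the aged heart, with exact Poisson 95% intervals. Grb10 and LOC102631979 are nearly all BL6, Ddc and 1700042O10Rik are mostly CAST with 6.98 and 5.44 RPM in the adult heart, and both alleles of Cobl are near 20.9 RPM in the adult heart.

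Markers of cardiac cell types moved between the libraries as well. Summed over the list, cardiomyocyte markers (Myh6, Ttn, Ryr2 and Tnnt2) had 27297 RPM at 9 weeks and 24392 RPM at 78 weeks, fibroblast markers 555 and 916, endothelial markers 320 and 586, pericyte markers 87.1 and 154, smooth muscle markers 94.2 and 283, macrophage markers 156 and 261, lymphocyte markers 19.1 and 7.06, and Schwann markers 111 and 139. The lower cardiomyocyte sum came from Ttn, with a ratio of 0.580, while the median ratio of the list was 1.06. The pericyte marker Kcnj8 was at 0 in both libraries. Ikzf1 stood at 13.4 and 21.2 RPM, a ratio of 1.58 (1.22 to 2.03). The part of these shifts in the levels of Ikzf1, Ddc and Cobl was not tested. Markers of neurons, in which the paternal Grb10 allele is used, had few reads, with 13.5 and 20.2 RPM summed over 6 markers, most of it from Syt1. Syt1 had 111 adult and 89 aged reads, Rbfox3 10 and 14, Uchl1 5 and 7, Snap25 4 and 7, and Tubb3 and Chat 1 and 0 each.

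Grb14 and Cobll1, the paralogs of Grb10 and Cobl, lie beside each other on chromosome 2 with a gap of 65.6 kb and gave a comparison with a like pair of genes. Grb14 (chr2:64912476-65022766) encodes an adaptor that also inhibits the insulin receptor. It was read from both alleles. The BL6 allele had 3163 of 7093 adult reads (allelic ratio 0.446, 0.434 to 0.458) and 761 of 1586 aged reads (allelic ratio 0.480, 0.455 to 0.505). The allelic ratio of Grb10 was higher than that of Grb14 by 0.552 (0.540 to 0.563) at 9 weeks and 0.516 (0.490 to 0.540) at 78 weeks. For Cobll1 the allelic ratio was 0.573 (0.562 to 0.584) and 0.599 (0.582 to 0.616). This was higher than for Cobl by 0.0716 (0.0220 to 0.121) in the adult heart, and in the aged heart the difference of -0.0110 (-0.0907 to 0.0745) included 0. Per kb of locus, Grb14 had 6.60 RPM per kb and Grb10 2.03 RPM per kb in the adult heart, and 2.48 and 2.10 in the aged heart. Grb14 was lower in the aged heart, with an RPM ratio of 0.375 (0.355 to 0.396). For Grb10 the RPM ratio was 1.03 (0.964 to 1.11), a result that depended on the scale. Cobll1 had 5.13 and 3.67 RPM per kb, far above Cobl with 0.183 and 0.103, and Ddc was lowest with 0.0964 and 0.0246. The number of SNPs per kb differs between loci and is not part of these values, so levels per kb carry that difference as well. The third adaptor of the family, Grb7, had no row in either library.

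Other imprinted genes showed how far such an allelic ratio was shared in the heart. Of 12 maternally expressed genes, 7 had at least 20 reads in both libraries, and Meg3 and Rian were the 2 with an allelic ratio of 0.9 or higher in both. The other 5 ranged from 0.492 to 0.560 at 9 weeks and from 0.495 to 0.565 at 78 weeks, among them Ube3a, a ubiquitin ligase gene whose imprinting is known from neurons, with 0.492 (0.473 to 0.511) and 0.532 (0.509 to 0.554). Of 15 paternally expressed genes, 6 had enough reads, and 3 of them, Sgce, Snrpn and Plagl1, had an allelic ratio of 0.1 or lower in both. Sgce, the epsilon-sarcoglycan gene, had 13 BL6 of 760 reads at 9 weeks and 7 of 435 at 78 weeks. Plagl1, a zinc finger gene, had 26 of 402 and 8 of 98. Inpp5f, with 0.417 and 0.427, and Zdbf2, with 0.536 and 0.593, were nearer to an even share. Peg3 had an allelic ratio of 0.104 (0.0655 to 0.155) at 9 weeks and 0.0233 (0.000589 to 0.123) at 78 weeks. The adult interval of Ddc, 0.0716 to 0.235, overlaps the adult interval of Peg3. Without the reads inside 1700042O10Rik, the adult allelic ratio of Ddc was 0.400 (0.211 to 0.613), and that interval does not overlap the one of Peg3.

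**Figure D3:**
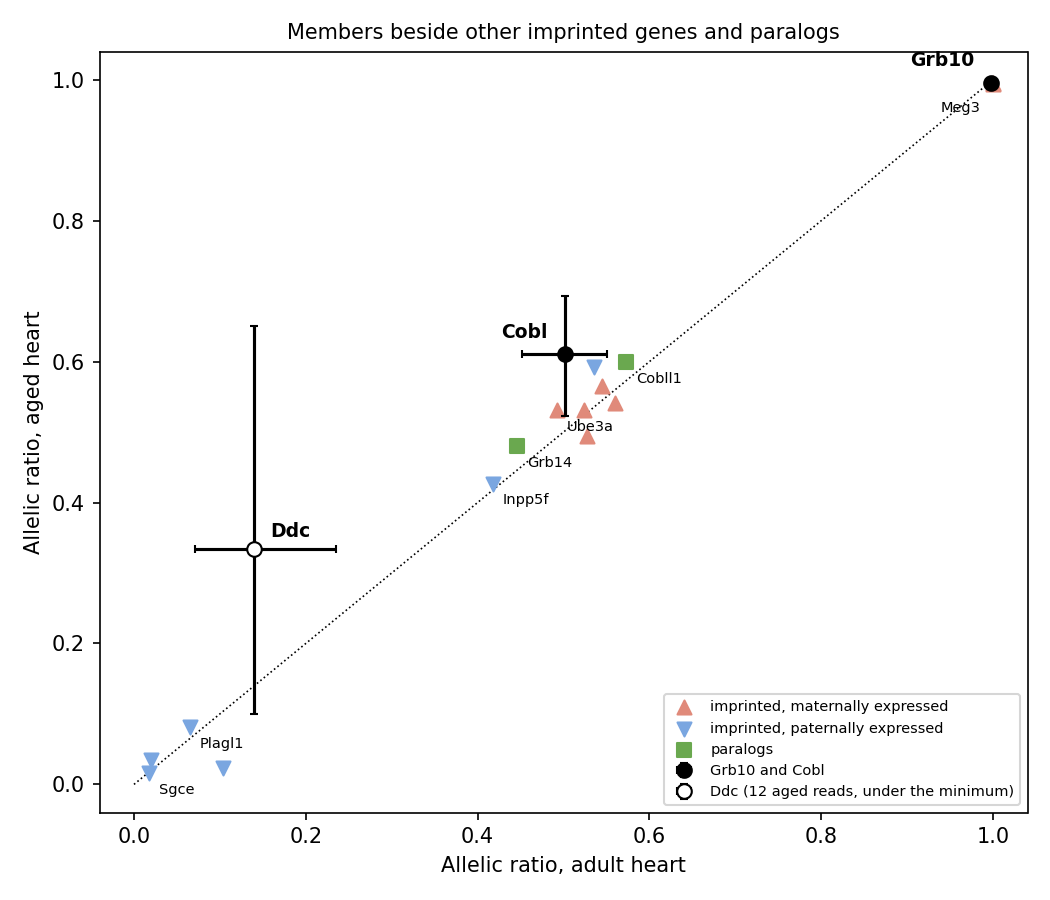
Allelic ratio in the adult (x axis) and the aged heart (y axis) of Grb10 and Cobl (filled circles) and Ddc (open circle, 12 aged reads) with exact 95% intervals, beside imprinted genes with at least 20 reads in both libraries (triangles) and the paralogs Grb14 and Cobll1 (squares). Grb10 lies with Meg3 and Rian at the upper right, Ddc lies between Sgce, Snrpn, Plagl1 and Peg3 at the lower left and the genes near 0.5, which include 2 paternally expressed ones, and Cobl lies among the genes near 0.5.

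The pathways of the 3 genes were set beside them. Of 18 genes of insulin and IGF receptor signalling, 17 had at least 20 reads in both libraries, 1 (Mtor) had an RPM ratio of 1.5 or higher and 1 (Grb14) a ratio at or below the reciprocal of 1.5. Over all autosomal genes these shares were 28.3% and 11.7%. The median ratio of the list was 1.11, against 1.17 for all autosomal genes, and their allelic ratios ranged from 0.394 to 0.603 at 9 weeks and from 0.379 to 0.605 at 78 weeks. The ubiquitin ligase gene Nedd4, whose product binds Grb10, had 807 and 1047 RPM, a ratio of 1.30 (1.25 to 1.34). The receptors stood at 495 and 362 RPM for Insr, a ratio of 0.732 (0.695 to 0.770), and at 614 and 859 RPM for Igf1r, a ratio of 1.40 (1.35 to 1.45).

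Few genes of monoamine synthesis were measured beside Ddc. Of 12 genes, 4 had at least 20 reads in both libraries. Th and Tph1, which encode the enzymes before Ddc in dopamine and serotonin synthesis, had no row in either library, and the neuronal Tph2 had 5 and 13 reads. The noradrenaline and adrenaline enzymes Dbh and Pnmt had 3 and 1 reads in each library. Of the 4 measured genes, 3 had a ratio of 1.5 or higher, against 28.3% of all autosomal genes, but 4 genes are few. Ddc had a ratio of 0.255. Pdxk, the kinase that makes the vitamin cofactor of Ddc, had 40.1 and 107 RPM, a ratio of 2.66 (2.34 to 3.03).

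Of 18 genes of actin nucleation and its partners, 16 had at least 20 reads in both libraries, 7 with a ratio of 1.5 or higher and 2 (Lmod3 and Fmn1) with a ratio at or below the reciprocal of 1.5. Over all autosomal genes, 28.3% were higher and 11.7% lower by as much. The median ratio was 1.46, and Cobl at 0.561 was therefore at the low end of the list. Fhod3, a formin of the cardiac sarcomere, had 2581 and 2010 RPM. Lmod3, a leiomodin of striated muscle, had 56.6 and 29.5 RPM, a ratio of 0.520 (0.436 to 0.619) near that of Cobl. In none of the 3 pathway lists did a gene reach an allelic ratio of 0.9 in both hearts.

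**Figure D4:**
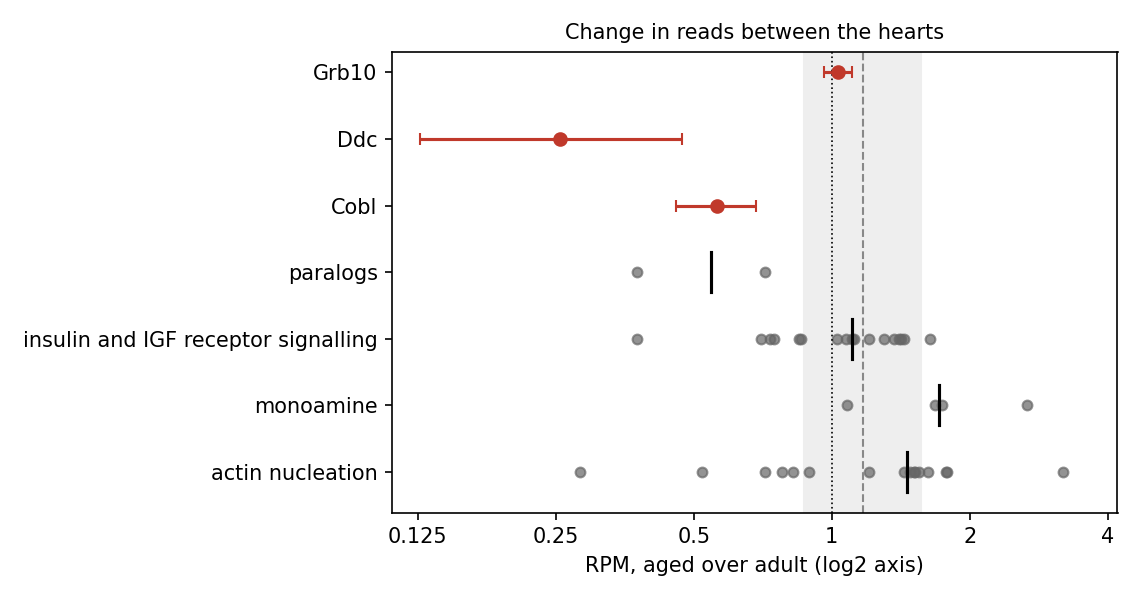
Ratio of RPM, aged over adult (x axis, log2 axis), of Grb10, Ddc and Cobl (red, with exact 95% intervals) and of single genes of the lists with at least 20 reads in both libraries (grey points, black bars for the median). The grey band is the interquartile range of 12390 autosomal genes and the dashed line their median of 1.17; Grb10 lies inside the band, and Ddc (0.255) and Cobl (0.561) lie below it.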

How the data were processed

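Per the submitters' notes, Cell Ranger 7.1.0 and mm10 were used. The authors split the alignments by active X chromosome (Xa), kept the nuclei whose Xa was BL6 and counted alleles per RefSeq gene with Allelome.PRO2. The deposited values are counts of BL6, CAST and total SNP-overlapping reads per gene, not normalized and starting at 1 read, the allelic ratio as a fraction rounded to 2 decimals, and an allelic score that was not used. Background correction and collapsing of duplicate reads are not given for these counts in the sources used here, so a read may not stand for a molecule of its own. The study names DoubletFinder for removing doublets, and whether these pooled nuclei were filtered by it is not given there.

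Ages come from the labels, which a file name contradicts for the aged heart. The adult library held 9747535 and the aged 5805807 SNP-overlapping reads. Deposited starts count from 0 and were raised by 1. Allelic ratios were recomputed from the counts with Python 3.11.15 and scipy 1.17.1. Intervals are exact (Clopper-Pearson, Poisson, conditional binomial for RPM ratios) or Newcombe. They were run on simulated binomial and Poisson counts, the model they assume. This checks the code only and cannot show how they hold for real reads, which may include duplicates. A count of 0 was given a limit of 3 counts. The members and lists were chosen with earlier results of these data known. Beside the members, loci within 1 Mb of Grb10, the 5 autosomal genes nearest in allelic ratio (largest difference over both libraries, at least 100 reads), paralogs, pathway, imprinted and marker lists were named, up to 4 genes per list by adult reads. Genes that a count of 5 or fewer singles out, loci near Grb10 under 20 reads, and Insr, Lmod3, Peg3, Zdbf2, Th, Tph1, Tph2, Dbh, Pnmt, Tubb3, Chat, Kcnj8, H19 and Rasgrf1 were named after their values were seen, as was the split of Ddc at 1700042O10Rik. Some genes that the rule names are not reported here. Alternatives were other scalings, cutoffs, minimums, windows, reweighted alleles, reads of single alleles, the rounded deposited ratio and the ends of Wilson intervals.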

Additional observations from a re-analysis of the deposited data

How the results depend on the processing

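Of 99 alternative values, 72 stayed within the interval of the reported value (or within 1.5 times a count or share), 27 moved and 0 reversed. Reweighting the alleles to even autosomal or chromosome 11 reads kept every allelic ratio of the 3 genes inside its interval, as it did the differences it was applied to. The deposited ratio, rounded to 2 decimals, was inside for Ddc and Cobl, and for Grb10 it was 1 in both libraries, above its interval. Without the reads of inner loci, an alternative added after the data were seen, the allelic ratio of Ddc moved to 0.400 (adult) and 0.800 (aged) and the RPM ratio of Cobl to 0.444. The RPM ratio of Grb10 was 0.917 scaled to chromosome 11, 0.893 scaled to the median gene and 2.01 for CAST reads alone. It was 0.611 for BL6 reads of Ddc, and 0.683 for BL6 and 0.438 for CAST reads of Cobl. The autosomal share with a BL6 allelic ratio past the cutoff was 1.26% in the adult library at 0.95, 0.699% and 0.668% in the adult and aged library at 100 reads or more, and 3.34% and 3.44% at 10 reads or more. For CAST these shares were 0.356% and 0.392%, 0.338% and 0.0955%, and 1.06% and 1.02%. Past 2-fold, 0 insulin, 1 monoamine and 1 actin genes were higher and 1 actin gene was lower, and at 100 reads or more 3 actin genes were higher. By construction, the alternatives change the reads or genes counted, their scale or weight, the rounding or the interval. No cause of a moved value was tested. Ddc is limited by its 12 aged reads and by the reads it shares with 1700042O10Rik. No paired analysis was possible because each age has 1 library, and no replicate could be left out.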

Other observations

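Among the listed imprinted genes under 20 reads in the adult heart, some had more and some fewer reads in the aged heart. Zim1, with 15 adult and 4 aged reads, and Zrsr1, with 15 and 7, had fewer, in an aged library with fewer reads. H19 and Rasgrf1, named after their values were seen, had more, mostly or wholly from their known allele. How often autosomal genes with so few reads had more was not counted. H19, a maternally expressed noncoding RNA, had 6 adult and 39 aged reads, all from BL6, an RPM ratio of 10.9 (4.59 to 31.5). Rasgrf1, a paternally expressed exchange factor gene, had 9 adult and 68 aged reads, of which 7 and 62 were from CAST, a ratio of 12.7 (6.30 to 28.9). With 1 heart per age, the variation between animals was not measured.

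Fmn1, a formin gene of the actin list that is not known as imprinted, was read mostly from CAST, with 3668 of 3765 reads in the adult (allelic ratio 0.0258) and 565 of 633 in the aged heart (allelic ratio 0.107).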
